A study of Mus musculus with 16 samples.

Results

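The 6868 circular RNA entries described here are those whose deposited value was above 0 in all 16 libraries of the series. They were chosen from 14408 entries whose identifier begins with mmu_circ_. Of these, 6874 met that criterion and 6 were left out by name, 6818 were above 0 in 1 to 15 libraries, and 716 were at 0 in every library. The criterion uses the measured values, so detection in every library is a description and not a finding, and an entry absent on one diet could not be a member.

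Circular RNAs arise when the spliceosome joins the end of an exon to the start of the same or an earlier exon, a reaction called back-splicing. The closed loop has no free ends, so exonucleases that degrade linear mRNA act on it poorly, and it can persist in cells that divide slowly. Reads that cross the back-splice junction tell a circular RNA from the linear transcript of the same host gene, and 1 gene can give several circular RNAs. The numbering follows the style of the circBase catalogue. The file does not pair the numbers with host genes, coordinates or sequences, so entries are named by number only.

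The libraries were made from total RNA of epididymal white adipose tissue (eWAT, a visceral fat depot beside the testis) of 21-week-old mice, with 4 libraries in each of 4 groups. Chow mice ate a diet with 5% fat, and mice on the high-fat diet (HFD) ate 60% fat from 5 weeks of age. The 4 groups were WT on chow, Apoa4 KO on chow, WT on HFD and Apoa4 KO on HFD. The titles say KO, whereas the genotype field calls the same mice a knockdown. The labels give no strain, promoter or construct, and nothing in them says how the replicate numbers relate to litters or cages. An n of 4 per group is stated, without saying whether tissue of several mice was pooled, so p-values measure the spread between libraries.

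Apoa4, which encodes apolipoprotein A-IV, a lipid-carrying plasma protein made mainly in the intestine, went against the genotype labels. Its FPKM was 0.29, 0.25, 0.23 and 0.09 in the chow libraries labelled WT and 0.29, 0, 0.08 and 0 in the HFD libraries labelled WT. It was 3.59, 1.96, 5.96 and 5.29 in the chow libraries labelled KO and 8.69, 9.63, 7.23 and 4.93 in the HFD libraries labelled KO. Every library labelled KO therefore read higher than every library labelled WT, and the groups are called WT-labelled and KO-labelled throughout.

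The values of the circular entries were whole multiples of 1 step per library, between 0.180 and 0.340 deposited units, with every value within 0.05 of a whole multiple. A value is thus scaled to library depth by a constant that is not given, and not to length, unlike the FPKM of genes. Steps are taken here as reads. The members held between 219766 steps (chow KO-labelled 4) and 337922 steps (HFD KO-labelled 3) in a library. Replicate libraries of a group differed by more than counting noise, with a smallest chi-square per degree of freedom of 1.59.

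Some libraries stood apart before any comparison. Genes of the epididymis and testis took 3.50% of FPKM in chow KO-labelled 2, 1.28% in HFD KO-labelled 4, 0.0791% in HFD KO-labelled 2 and at most 0.0102% in the other 13. HFD KO-labelled 4 also had the largest relative depth, 1.42, and the lowest summed circular value. The main diet counts below are given with and without them.

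Most members were low, and a few held much of the signal. The median of the members' mean values was 3.84 units, or 14.8 steps per library. The means ranged from 0.441 to 2066 units. A mean under 10 steps was found for 2425 members (35.3%), a mean of at least 100 steps for 412, and a mean of at least 1000 steps for 27. In 1305 members (19.0%) the lowest library held a single step. Detection in every library thus covers entries at the limit of counting as well as abundant ones.

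The entry with the highest mean, mmu_circ_0001195, held 2.81% of the summed mean value of all members. The 10 entries with the highest means held 14.2%, the highest 100 held 34.7% and the highest 1000 held 66.6%. Only 356 members were needed to reach 50% of the summed value, whereas 90% took 3387. The remaining members therefore shared a small part of the total among many entries.

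At the edge of the rule, the lowest means inside it belonged to mmu_circ_0014383 (0.441 units), mmu_circ_0004146 (0.466 units) and mmu_circ_0009035 (0.511 units), each read at 1 to 5 steps. Just outside it, 988 entries were at 0 in exactly 1 library. The highest of these were mmu_circ_0011593 (mean 9.59 units), mmu_circ_0010606 (9.53 units) and mmu_circ_0002077 (7.86 units). The highest entries outside the rule were thus well above the lowest inside it. mmu_circ_0011593 and mmu_circ_0002077 were at 0 in HFD KO-labelled 1, and mmu_circ_0010606 was at 0 in chow KO-labelled 3.

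The question of diet was first asked of the members as a whole. Their summed value was 67394, 67905, 71198 and 70645 units in chow WT-labelled libraries and 80106, 80217, 74064 and 74774 in chow KO-labelled libraries. On HFD it was 71918, 69890, 75731 and 79604 in WT-labelled libraries and 81623, 84492, 74293 and 52742 in KO-labelled libraries. All 4 chow KO-labelled sums lay above the 4 chow WT-labelled ones, the chow and HFD ranges overlapped, and HFD KO-labelled 4 was the lowest of all 16. The order of the chow groups does not hold without the exclusion by name. The entries left out took 13.98% to 20.7% of all circular value in chow WT-labelled libraries and 2.46% to 4.55% in chow KO-labelled ones, and over all circular entries the sums were 85132 to 89133 and 78838 to 88038 units. The mean log2 difference, HFD minus chow, was -7.3e-05 (two-sided exact permutation test within genotype label, p = 1, 4900 arrangements). Without HFD KO-labelled 4 it was 0.08 (exact permutation p = 0.0604), and without that library and chow KO-labelled 2 it was also 0.08 (exact permutation p = 0.0471). Without the 3 libraries with most epididymal genes it was 0.06 (exact permutation p = 0.129), and with median-of-ratios scaling on gene FPKM -0.09 (exact permutation p = 0.515).

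The share held by the 10 entries with the highest means over all 16 libraries was larger on HFD. The ranking pools both diets, so an entry can be among the 10 through its HFD level. For example, mmu_circ_0005341 is among them with a chow mean of 295 units and an HFD mean of 798 units, while mmu_circ_0007821, with a chow mean of 593 units and an HFD mean of 122 units, is not. The pooled ranking is the same in every arrangement of the permutation test, and the test speaks for these 10 entries only. It was 11.8%, 11.01%, 9.40% and 10.2% in chow WT-labelled libraries and 13.4%, 21.0%, 20.8% and 13.3% in HFD WT-labelled libraries. It was 10.8%, 9.97%, 9.52% and 14.7% in chow KO-labelled libraries and 19.0%, 13.3%, 17.6% and 23.0% in HFD KO-labelled libraries. The WT-labelled groups did not overlap. In the KO-labelled groups chow 4 lay above HFD 2.

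The 10 entries' share was 6.74 percentage points higher on HFD over both labels (two-sided exact permutation test, p = 0.000816, adjusted over 3 such tests 0.00245). Within WT-labelled libraries the difference was 6.50 points (exact permutation p = 0.0286, the smallest that 4 against 4 allows). Within KO-labelled libraries it was 6.98 points (exact permutation p = 0.0571). The share of mmu_circ_0001195 alone was 1.14 points higher (exact permutation p = 0.0335, adjusted 0.0502), so this single entry did not pass the threshold after adjustment. Without HFD KO-labelled 4 its difference was 0.695 points (exact permutation p = 0.0767).

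**Figure D1:**
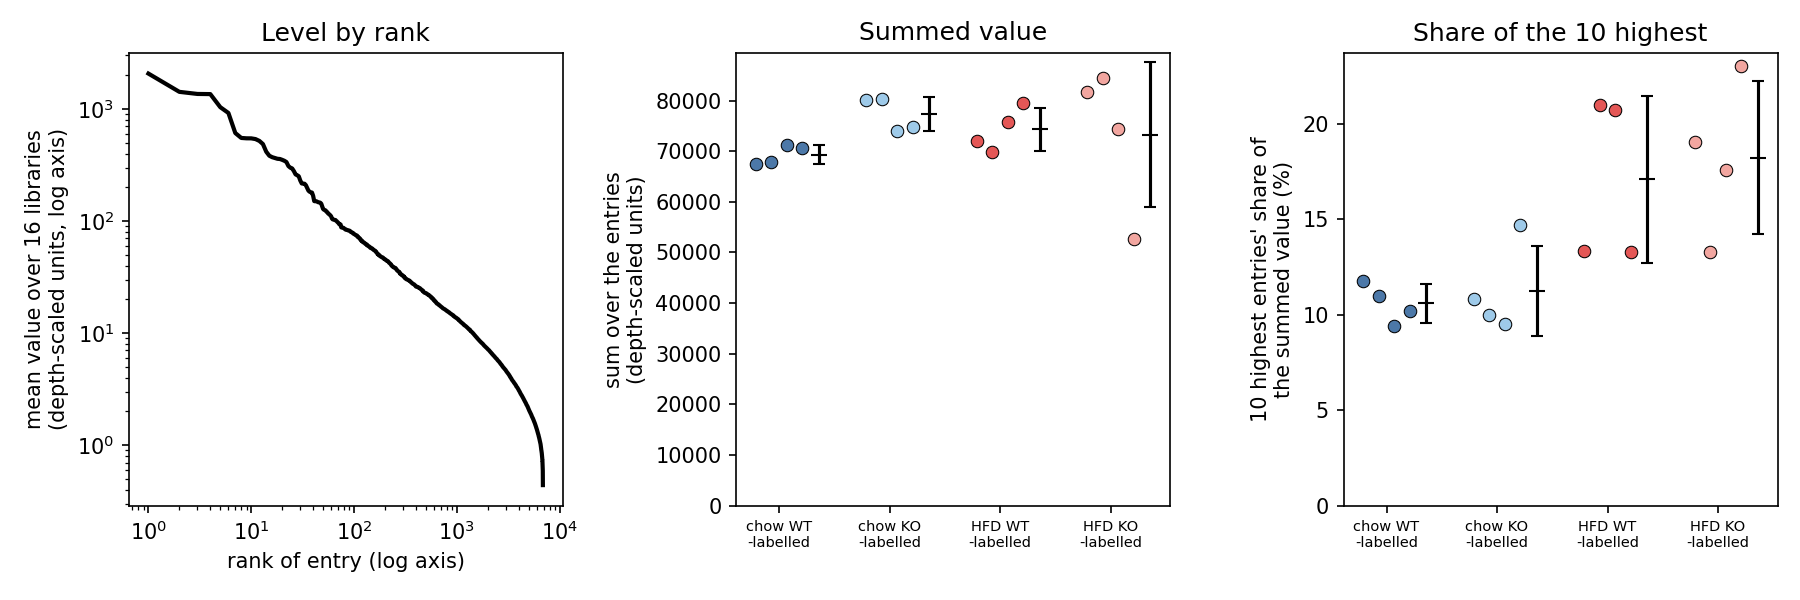
Left, mean value over 16 libraries of each of the 6868 entries against its rank, both axes logarithmic. Centre and right, the summed value and the share of it held by the 10 entries with the highest means, 1 point per library, with the group mean and SD (n = 4) as bars; HFD KO-labelled 4 has the lowest sum (52742 units) and the highest share (23.0%).

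Among those 10 entries, 3 passed the threshold of the averaged diet comparison, each higher on HFD. Since the ranking includes the HFD values, nothing is read from their common direction. The test was limma on log2(value + 0.262 units) over 11951 entries, with Benjamini-Hochberg adjustment and a threshold of 0.05. It averages the diet difference over both genotype labels. On this scale the change of low entries is understated.

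mmu_circ_0002318 read 585, 555, 684 and 630 units in chow WT-labelled libraries and 492, 566, 532 and 655 in chow KO-labelled libraries. On HFD it read 1066, 2441, 3582 and 1687 in WT-labelled libraries and 3238, 2459, 2025 and 553 in KO-labelled libraries. The 8 chow libraries were close together, 7 of the 8 HFD libraries were above all of them, and HFD KO-labelled 4 lay within the chow range. The log2 difference was 1.67 ± 0.33 (SE; limma adjusted p = 0.000385). This was the highest member of all in HFD WT-labelled 3, HFD KO-labelled 1 and HFD KO-labelled 2, whereas mmu_circ_0001195 was the highest in the other 13 libraries.

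mmu_circ_0012273 read 564, 598, 483 and 503 units in chow WT-labelled libraries and 452, 429, 496 and 267 in chow KO-labelled libraries. Values on HFD were 1041, 1574, 1919 and 1277 in WT-labelled libraries and 2233, 1752, 2156 and 836 in KO-labelled libraries. No HFD library fell within the chow range, and the lowest HFD value was again in KO-labelled 4. The log2 difference was 1.71 ± 0.27 (SE; limma adjusted p = 2.88e-05), a 3.28-fold rise. mmu_circ_0005341 rose by 1.30 ± 0.31 (SE, log2; limma adjusted p = 0.00335), from a chow range of 189 to 459 units to an HFD range of 215 to 1351 units that overlapped it.

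The other 7 of the 10 did not pass. mmu_circ_0001195 read 1719, 1538, 1278 and 1317 units in chow WT-labelled libraries and 1834, 2097, 1358 and 2421 in chow KO-labelled libraries. The HFD values were 2251, 3125, 2841 and 1984 in WT-labelled libraries and 2303, 1532, 2220 and 3232 in KO-labelled libraries. The chow and HFD ranges overlapped, although every HFD WT-labelled value was above every chow WT-labelled one. Its log2 difference was 0.52 ± 0.31 (SE; limma adjusted p = 0.267).

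mmu_circ_0001198 had a log2 difference of 0.61 (limma adjusted p = 0.158), mmu_circ_0011619 of 0.51 (0.238), mmu_circ_0001197 of 0.39 (0.295) and mmu_circ_0011620 of 0.21 (0.624). mmu_circ_0007940 had one of -0.41 (0.327) and mmu_circ_0014064 one of -0.60 (0.104). The last pair were thus the only entries of the 10 with a lower mean log2 value on HFD. Entries mmu_circ_0001195, mmu_circ_0001197 and mmu_circ_0001198 have neighbouring numbers, and mmu_circ_0001196, picked out after its value was seen, had a mean of 486 units.

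**Figure D2:**
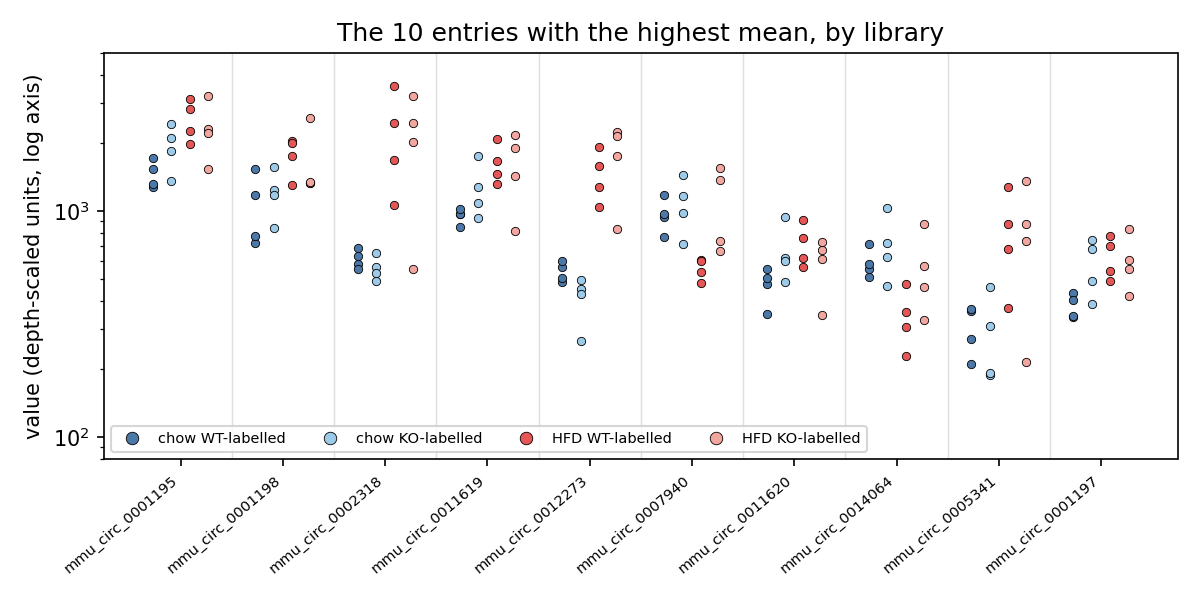
Values of the 10 entries with the highest means in each library, on a logarithmic axis, with 4 points per group. For mmu_circ_0002318 and mmu_circ_0012273 the HFD points lie above the chow points except for the HFD KO-labelled 4 value of mmu_circ_0002318 (553 units).

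Across all members, 1535 of 6868 (22.4%) passed the averaged diet comparison, against 17.8% of all circular entries tested and 11.6% of the 5083 tested entries that are not members. Of the 1535, 571 were higher on HFD and 964 were lower, against 7.33% and 10.5% of all entries tested, and 881 differed by at least 2-fold. The median log2 difference of the members was -0.13, against -0.10 for all entries tested. The split between higher and lower depended on scaling and on a few libraries. With median-of-ratios scaling on the circular entries, which moved the members' median from -0.13 to -0.01, 947 were higher and 862 lower. Without HFD KO-labelled 4 the counts were 861 and 900, and without that library and chow KO-labelled 2 they were 989 and 879. They were 891 and 976 without the 3 libraries with most epididymal genes. Other scalings kept more lower than higher calls, with 740 and 987 for a constant circular sum and 498 and 1170 for median-of-ratios on gene FPKM. The number called stayed between 1245 and 1761 when any 1 library was left out.

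Calls were more frequent among abundant entries. When the members were ordered by mean, 134 of the lowest 1717 passed (7.80%), then 330 of 1717 (19.2%), 435 of 1718 (25.3%) and 636 of the highest 1716 (37.1%). The median SD of log2 values within a group fell along the same order from 0.627 to 0.431. The variance within groups was 1.26 times counting noise in the lowest set and 5.42 times in the highest. In the lowest set most of the spread was therefore of the size of counting noise, and at that depth small differences were not detectable.

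The diet comparison was also made within each genotype label. In WT-labelled libraries 594 members passed, 316 higher and 278 lower. This is 8.65% of the members (4.60% higher, 4.05% lower), against 6.64% of all entries tested (3.76% higher, 2.88% lower). In KO-labelled libraries 823 passed, 219 higher and 604 lower. This is 11.98% of the members (3.19% higher, 8.79% lower), against 9.39% of all entries tested (2.91% higher, 6.48% lower). The members' median log2 difference was -0.01 in WT-labelled and -0.22 in KO-labelled libraries, where HFD KO-labelled 4 enters. In KO-labelled libraries the split was 443 higher and 492 lower without HFD KO-labelled 4 (median -0.06), 587 and 507 without that library and chow KO-labelled 2 (median 0.01), and 461 and 561 without the 3 libraries with most epididymal genes. It was 517 and 451 with median-of-ratios scaling on the circular entries and 353 and 559 with a constant circular sum. In WT-labelled libraries it was 190 and 265 without HFD WT-labelled 4, and 362 and 479 with a constant sum of the members, a scaling added after seeing the data. The WT-labelled count was 290 without HFD WT-labelled 3 and 311 without HFD WT-labelled 2. It was 346 to 391 without any 1 of the chow WT-labelled libraries, and the KO-labelled count was 532 without HFD KO-labelled 3.

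Of these calls, 310 were shared by both labels, which is 52.2% of the WT-labelled calls and 37.7% of the KO-labelled calls. Of the 310, 142 were higher on HFD in both, 167 were lower in both, and 1 went opposite ways. Over all members 69.7% had the same sign in both, and the log2 differences of the 6868 entries had a Pearson r of 0.654 and a Spearman rho of 0.589. These are descriptions across entries, which share libraries and may share host genes, and so are not independent replicates. The same figures were not worked out for entries that are not members, so nothing is read from them as particular to the members.

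**Figure D3:**
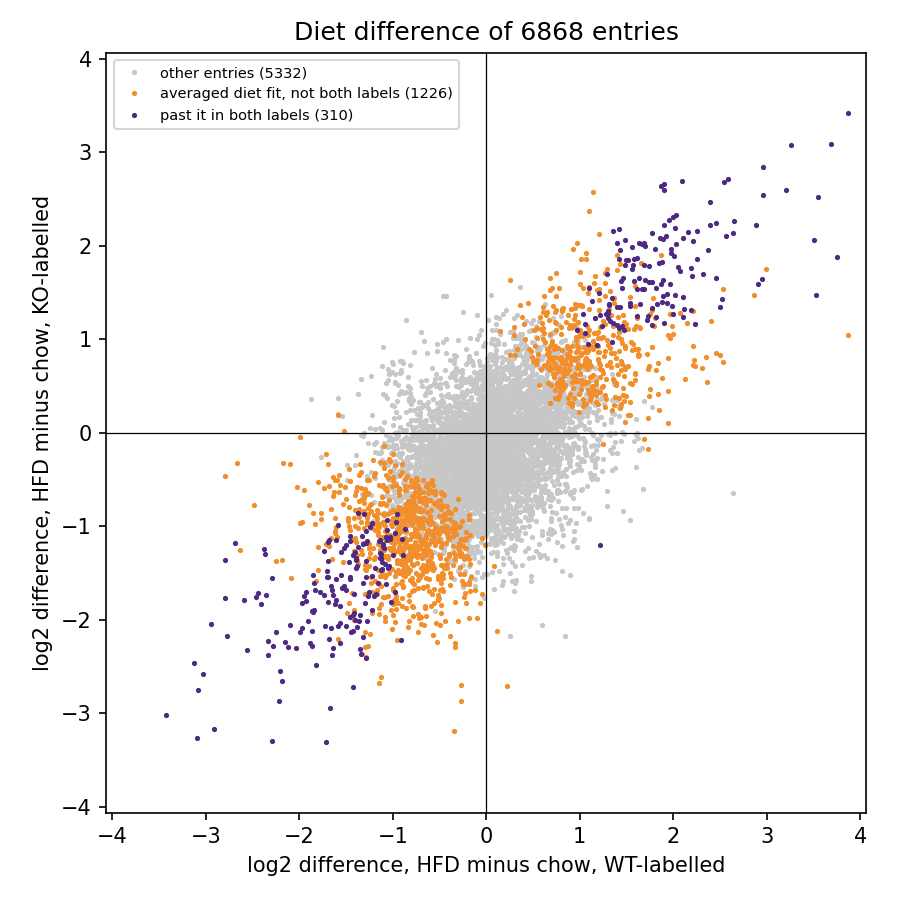
Log2 difference, HFD minus chow, of each of the 6868 entries in WT-labelled libraries (x axis) and KO-labelled libraries (y axis). The 310 entries past the threshold in both labels lie in the upper right (142) and lower left (167), with 1 exception, and a further 1226 passed the averaged comparison but not both labels.

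The exception was mmu_circ_0016200, named after its values were seen. It read 3.52, 3.53, 4.99 and 4.48 units in chow WT-labelled libraries and 10.6, 8.78, 8.87 and 11.2 in HFD WT-labelled libraries. It read 8.17, 8.34, 15.1 and 13.6 in chow KO-labelled libraries and 5.01, 7.22, 6.60 and 1.80 in HFD KO-labelled libraries. Neither pair of groups overlapped, and the order of the diets was opposite. The difference between the 2 diet effects was -2.41 on the log2 scale and did not pass the threshold (limma interaction term, adjusted p = 0.102).

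4 entries with consecutive numbers were among the 10 largest falls on HFD. The 8 chow and 8 HFD values did not overlap in 233 members, or 3.39% (54 higher and 179 lower). The share was 2.35% among all 11951 entries tested (0.619% higher, 1.73% lower). All 233 were called, where 17.8% of all entries tested were called. Entries chosen for having no overlap are apt to pass the same diet test, so nothing is read from that difference. Among these 233, the largest fall was that of mmu_circ_0009508, which was at 1 to 25 steps in the HFD libraries. The next was mmu_circ_0009509, the third was mmu_circ_0001223 (-3.04), and mmu_circ_0009511 (-2.91) and mmu_circ_0009510 (-2.80) followed. The fitted log2 differences of the 10 largest falls ran from -3.22 to -2.47, with limma adjusted p between 4.2e-09 and 1.94e-05.

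mmu_circ_0009510, the most abundant of the 4, read 528, 348, 408 and 389 units in chow WT-labelled libraries and 444, 312, 314 and 172 in chow KO-labelled libraries. On the high-fat diet the values were 139, 22.8, 25.4 and 80.2 in WT-labelled libraries and 11.5, 99.1, 48.4 and 105 in KO-labelled libraries. Every HFD value was below the lowest chow value, and the ratio of the highest to the lowest library was larger on HFD, although the SD in units was larger on chow (77.3 and 111 in WT-labelled and KO-labelled libraries, against 54.7 and 44.2 on HFD). It fell by 2.80 on the log2 scale (SE 0.35; limma adjusted p = 9.94e-07), 6.97-fold.

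mmu_circ_0009511 read 235, 165, 185 and 187 units in chow WT-labelled libraries and 195, 168, 150 and 86.1 in chow KO-labelled libraries. On HFD it read 60.2, 10.7, 12.7 and 30.7 in WT-labelled libraries and 3.50, 38.7, 26.4 and 53.0 in KO-labelled libraries. The order of the HFD libraries was close to that of mmu_circ_0009510, with WT-labelled 1 at the top and KO-labelled 1 at the bottom of both. mmu_circ_0009509 fell from 25.9 to 95.2 units on chow to 1.75 to 15.3 units on HFD, and mmu_circ_0009508 from 11.03 to 25.9 units to 0.240 to 5.90 units.

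2 falls outside this run are set out in full. mmu_circ_0005930 read 91.4, 53.3, 74.8 and 61.1 units in chow WT-labelled libraries and 73.3, 36.4, 59.7 and 45.3 in chow KO-labelled libraries. Values on HFD were 13.7, 4.39, 5.27 and 10.5 in WT-labelled libraries and 3.50, 14.7, 7.04 and 19.0 in KO-labelled libraries. All HFD values were under every chow value, for a log2 difference of -2.80 ± 0.27 (SE; limma adjusted p = 1.05e-08).

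mmu_circ_0002082 read 170, 212, 250 and 177 units in chow WT-labelled libraries and 129, 128, 216 and 222 in chow KO-labelled libraries. The HFD values were 52.2, 19.4, 17.3 and 40.4 in WT-labelled libraries and 18.8, 58.7, 41.3 and 40.6 in KO-labelled libraries. The groups were again apart, and this entry had the smallest standard error of the 10 falls. It fell by 2.47 on the log2 scale (SE 0.24; limma adjusted p = 1.11e-08). Beside mmu_circ_0001223, the other falls were mmu_circ_0015656 (-2.80), mmu_circ_0005794 (-2.54) and mmu_circ_0010393 (-2.50) (log2). None of these 4 exceeded 72.5 units in any chow library. On HFD mmu_circ_0001223 was at 3 to 16 steps, mmu_circ_0005794 at 2 to 7 and mmu_circ_0010393 at 1 to 26, so their sizes rested on few reads.

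The rises without overlap were led by mmu_circ_0008293. It read 6.28, 5.71, 5.54 and 4.21 units in chow WT-labelled libraries and 5.84, 16.7, 3.61 and 2.04 in chow KO-labelled libraries. On the high-fat diet the values were 22.4, 67.3, 102 and 54.6 in WT-labelled libraries and 77.3, 54.3, 61.8 and 17.6 in KO-labelled libraries. The highest chow value was in KO-labelled 2 and the lowest HFD value in KO-labelled 4, the 2 libraries with most RNA of epididymal genes, and these nearly met. This was a log2 difference of 3.17 ± 0.32 (SE; limma adjusted p = 2.41e-08).

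mmu_circ_0002635 had the smallest p of all members. It read 18.1, 16.6, 21.1 and 13.2 units in chow WT-labelled libraries and 12.6, 15.8, 11.8 and 11.6 in chow KO-labelled libraries. On HFD it read 91.6, 88.2, 99.2 and 83.2 in WT-labelled libraries and 85.8, 123, 67.3 and 37.5 in KO-labelled libraries. Both diets were tight apart from HFD KO-labelled 4, and the gap between them was wide. The resulting log2 difference was 2.43 ± 0.20 (SE; limma adjusted p = 1.93e-09).

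Its neighbour in number, mmu_circ_0002634, rose by 2.35 ± 0.21 (SE, log2; limma adjusted p = 3.95e-09), from 4.76 to 10.3 units on chow to 20.5 to 46.8 units on HFD. mmu_circ_0011265 rose by 2.39 ± 0.26 (SE, log2; limma adjusted p = 8.92e-08), from 4.89 to 11.6 units to 16.7 to 77.6 units. mmu_circ_0009329 rose by 2.46, mmu_circ_0004527 by 2.31 and mmu_circ_0003960 by 2.30. The remaining 3 of the 10 rested on few reads on chow. mmu_circ_0007978 (2.90) was at 1 to 4 steps in the chow libraries, mmu_circ_0001159 (2.65) at 1 to 5 steps and mmu_circ_0010371 (2.61) at 1 to 6 steps.

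Some larger rises overlapped only through chow KO-labelled 2. mmu_circ_0015634 read 1.25, 0.543, 0.277 and 0.263 units in chow WT-labelled libraries and 0.292, 9.24, 0.328 and 0.340 in chow KO-labelled libraries. Values on HFD were 5.20, 15.7, 13.4 and 13.0 in WT-labelled libraries and 7.76, 29.2, 10.3 and 9.70 in KO-labelled libraries. The single high chow value, 9.24 units, was that of the library in which epididymal genes took 3.50% of FPKM; the part of that RNA in the value was not tested. The log2 difference was 3.65 ± 0.43 (SE; limma adjusted p = 3.86e-07). mmu_circ_0015629, close to it in number, showed the same single high chow value (14.3 units, against 0.985 to 3.05 in the other 7) and a log2 difference of 3.39.

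**Figure D4:**
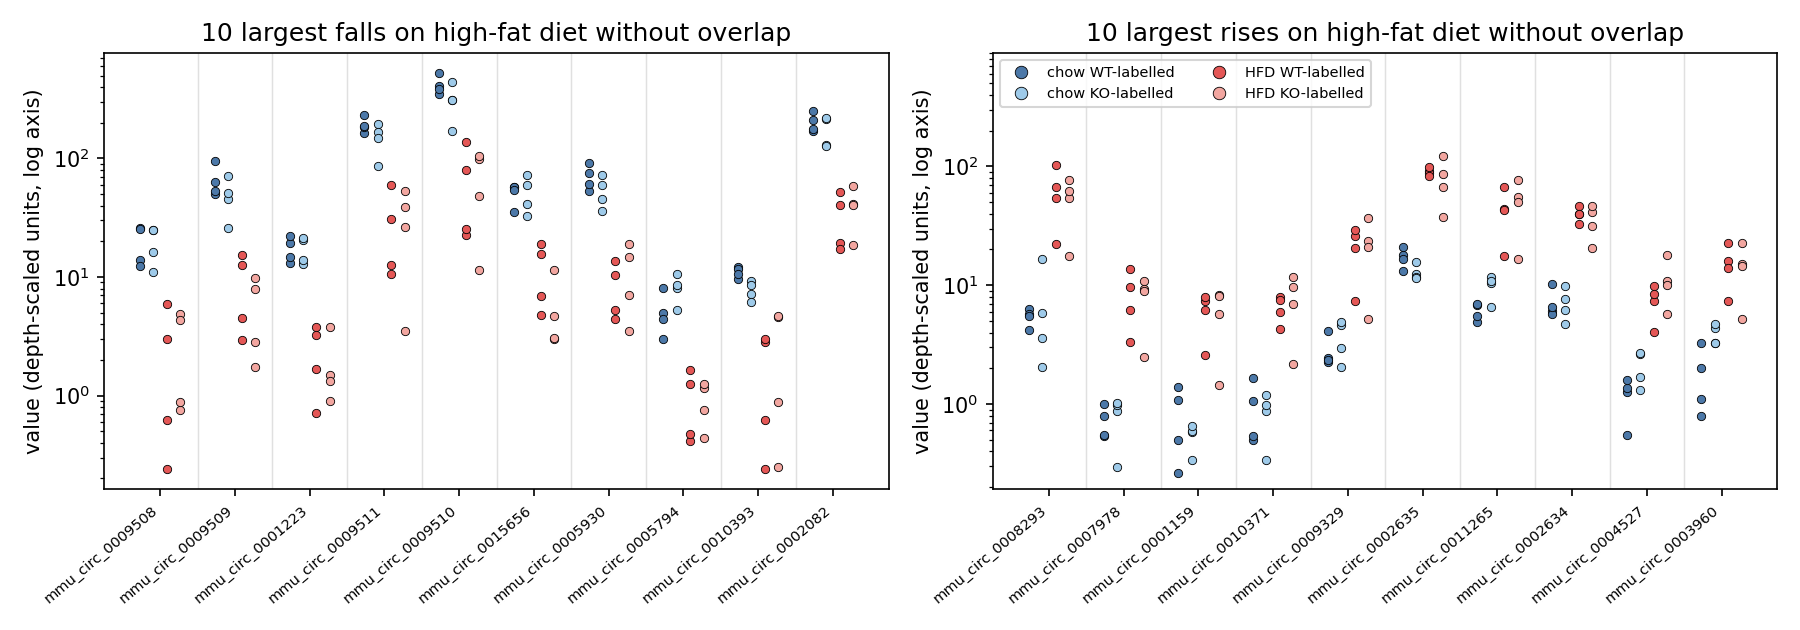
Values in each library of the 10 largest falls (left) and the 10 largest rises (right) on HFD among members whose chow and HFD values did not overlap, on a logarithmic axis, with 4 points per group. On this axis the HFD points of the falls span wide ratios, for example 11.5 to 139 units for mmu_circ_0009510.

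Marker genes of the cell types in the tissue moved with diet as well. Of 20 adipocyte markers, 15 were lower and 1 higher on HFD (limma on log2(FPKM + 1), 12667 genes tested, of which 23.4% were lower and 32.5% higher). Their summed FPKM was 54144 to 58183 in chow WT-labelled, 28589 to 59362 in chow KO-labelled, 8889 to 32210 in HFD WT-labelled and 5753 to 22760 in HFD KO-labelled libraries. Of 15 macrophage markers, 14 were higher and 1 lower. Their summed FPKM was 1518 to 1639, 1157 to 1445, 2234 to 8636 and 3122 to 10332 in the same order of groups. Of 15 markers of lipid-associated macrophages, which share Lpl and Cd36 with adipocytes, 13 were higher and 1 lower. Of other lists, 6 of 10 mesothelial markers were lower, 5 of 7 neutrophil and mast cell markers were higher, 5 of 12 progenitor and fibroblast markers were higher and 3 lower, and 1 of 10 endothelial markers was higher and 1 lower. Of 9 lymphocyte markers tested 1 was lower, both muscle markers tested were lower, and none of 6 erythroid or 6 epididymal markers tested passed. The muscle marker Acta1 had a mean of 176 FPKM on chow and 8.29 on HFD in WT-labelled libraries. In KO-labelled libraries its mean was 10.8 FPKM on chow and 25.6 on HFD. No marker of these lists was at 0 in every library.

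For the 10 largest falls and 10 largest rises only, the extreme HFD libraries were set beside those of the marker sums. These entries were picked for their diet change and do not stand for all members. HFD WT-labelled 1 had the highest adipocyte sum of the 8 HFD libraries (32210) and the highest value in 7 of the 10 largest falls. HFD KO-labelled 1 had the lowest adipocyte sum (5753) and the lowest value in 5 of them. HFD WT-labelled 1 and HFD KO-labelled 4 had the lowest macrophage sums (2234 and 3122) and were the lowest HFD libraries in 8 of the 10 largest rises. HFD KO-labelled 1 had the highest macrophage sum (10332) and the highest value in 4 of the 10 rises. HFD KO-labelled 4 also had the lowest summed value of the members in any library (52742 units), so it read low for circular entries in general. The part of this in its low place among the rises was not tested. In bulk tissue, fewer cells of a type and less RNA per cell cannot be told apart, and the part of cell composition in the members' diet differences was not tested.

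The machinery that makes, moves and degrades circular RNAs was read from the gene entries. Splicing regulators bind the introns beside an exon and can bring its ends together. Of 17 tested, 7 were higher and 4 lower on HFD. Among all 12667 genes tested, 32.5% were higher and 23.4% lower. Nothing about the machinery is read from the counts of this list or of those below. Qk, which encodes Quaking, a binder of flanking introns that promotes back-splicing, rose from 55.5 ± 2.13 and 67.3 ± 13.4 FPKM in chow WT-labelled and KO-labelled libraries to 96.4 ± 10.3 and 86.1 ± 18.6 on HFD (SD, n = 4; log2 0.56, limma adjusted p = 0.000664). Mbnl3, of the muscleblind family, rose by 1.10 on the log2 scale from at most 1.12 FPKM in the chow libraries. Rbfox2 fell by 0.70 and Nova1 by 0.60, both regulators of alternative exons.

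Of the 3 genes that resolve base pairing between flanking introns, Dhx9, an RNA helicase, was 0.29 higher (log2; limma adjusted p = 0.038), and with median-of-ratios scaling on the genes it did not pass (0.21, limma adjusted p = 0.0571). Of 16 core spliceosome genes, 4 were higher and 3 lower. Cdc40, which acts in the late catalytic step, fell from 18.5 ± 0.584 and 15.1 ± 1.497 FPKM on chow to 8.65 ± 0.479 and 10.9 ± 0.522 on HFD (SD, n = 4; WT-labelled and KO-labelled in each case, log2 -0.72, limma adjusted p = 8.25e-07). Snrnp200 fell by 0.33, and Prpf3 and U2af2 each rose by 0.42. The list's counts were 4 and 4 with median-of-ratios scaling on the genes and 7 and 2 with a constant sum of FPKM.

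Among 5 export genes, Ddx39a, a helicase linked to the export of short circular RNAs, rose by 1.34 (log2; limma adjusted p = 2.54e-05) and was the 1 that passed, against 2 with a constant sum of FPKM. Of 17 genes of decay and RNA sensing, 6 were higher and 5 lower. Ago2 (0.95) and Zc3h12a (0.73) were among the higher ones, and Drosha (-0.41) and Rida (-0.81) among the lower. Of 9 genes that write, erase or read m6A, a methyl mark on RNA, 4 were higher and 2 lower. Igf2bp2 rose from means of 3.49 and 4.45 FPKM on chow to 16.02 and 13.3 FPKM on HFD (limma adjusted p = 0.000428), Mettl3 rose by 0.41 and Ythdf1 by 0.38 on the log2 scale, while Fto fell by 0.23. With a constant sum of FPKM 4 were higher and none lower, Fto included (-0.18, limma adjusted p = 0.0725). The median log2 of these 6 lists ran from 0.11 to 0.22, against 0.07 over all genes tested.

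Genotype labels were compared on each diet. On chow, 1 member passed (0.0146%), against 0.0669% of all entries tested, and on HFD 1 member passed (0.0146%), against 0.0335%. At an unadjusted p under 0.05 there were 434 and 535 members. The members' median log2 difference, KO-labelled minus WT-labelled, was 0.16 on chow and -0.05 on HFD.

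On chow this was mmu_circ_0007820, which read 2.01, 0.543, 1.11 and 0.790 units in WT-labelled libraries and 3.50, 19.1, 6.56 and 7.83 in KO-labelled libraries. The groups did not overlap, and the highest value was in KO-labelled 2. The log2 difference was 2.64 (limma adjusted p = 0.0485), and the call was lost in 21 of 32 alternative settings. Without chow KO-labelled 2 the log2 difference was 2.22 (limma adjusted p = 0.184).

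On HFD the member was mmu_circ_0001200, which read 20.5, 26.1, 33.8 and 23.4 units in WT-labelled libraries and 10.8, 7.22, 7.04 and 7.90 in KO-labelled libraries. The groups were apart, with WT-labelled libraries higher. KO-labelled minus WT-labelled, the log2 difference was -1.62 (limma adjusted p = 0.0202), and the call was lost in 7 of 32 alternative settings. It was lost without any 1 of HFD WT-labelled 2, 3 or 4 or HFD KO-labelled 3, with adjusted p between 0.0551 and 0.0839. On chow the same entry read 16.3, 16.3, 10.8 and 15.3 in WT-labelled libraries and 14.9, 24.1, 11.5 and 32.7 in KO-labelled libraries, where the groups overlapped.

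No member passed the test of a different diet effect in the 2 genotype labels (limma interaction term, 0% of all entries tested). At an unadjusted p under 0.05 there were 495 members, and the smallest adjusted p was 0.102. With array weights, which give outlying libraries less weight, 6 members passed.

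Entries with neighbouring numbers resembled each other. Over 3841 pairs of members whose numbers differ by 1, the median Pearson r of log2 values across the 16 libraries was 0.41, and 0.39 after the group means were removed. At a distance of 2 it was 0.30, at 10 it was 0.17, at 100 it was 0.14 and at 1000 it was 0.14. Among pairs in which both entries had at least 100 steps, the median was 0.92 at a distance of 1 (67 pairs) and -0.02 at a distance of 1000 (10 pairs). These correlations share the same 16 libraries and their depths, and whether neighbours in number share a host gene is not given in the files. Neighbouring entries are thus not independent, and the counts of calls include such groups.

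**Figure D5:**
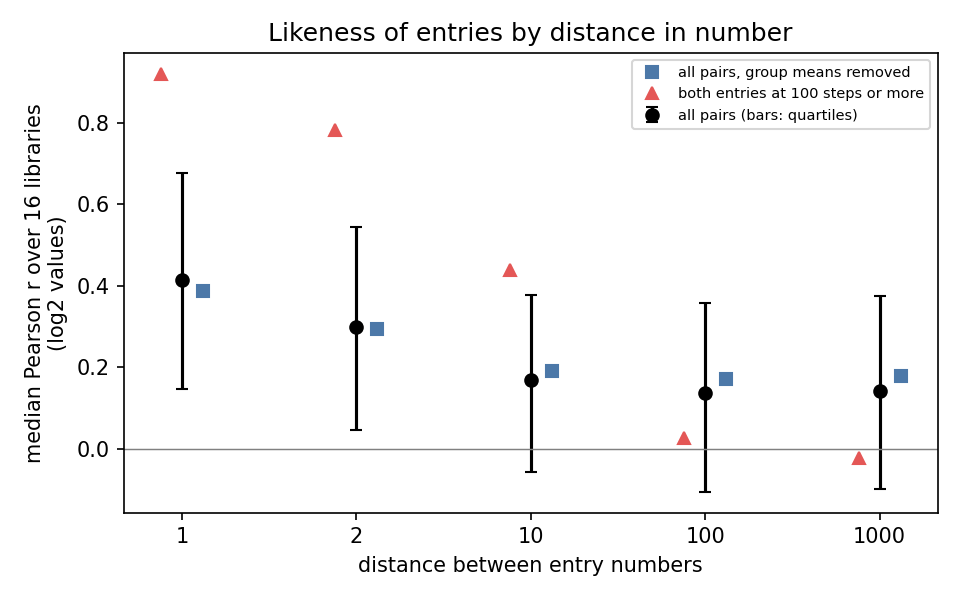
Median Pearson r of log2 values across 16 libraries for pairs of members, by the distance between their numbers. Circles are all pairs with quartiles as bars, squares are the same after the group means were removed, and triangles are pairs with at least 100 steps in both, which fall from 0.92 at a distance of 1 to -0.02 at 1000.

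Calls came in runs along the numbering. There were 68 runs of at least 3 consecutive numbers called in the same direction in the averaged diet comparison, 45 lower and 23 higher, holding 244 of the 1535 called members. The longest lower runs, of 7 entries each, were mmu_circ_0005015 to mmu_circ_0005021 (median log2 -1.51), mmu_circ_0008321 to mmu_circ_0008327 (-1.17) and mmu_circ_0011420 to mmu_circ_0011426 (-0.94). The longest higher run, also of 7, was mmu_circ_0006733 to mmu_circ_0006739 (1.71) and held 0.425% of the members' summed value. The largest fall by run was that of mmu_circ_0009508 to mmu_circ_0009511 (median log2 -3.05), and among the largest rises were mmu_circ_0011262 to mmu_circ_0011265 (2.28) and mmu_circ_0002632 to mmu_circ_0002635 (2.12).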

How the data were processed

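The deposited table gives FPKM per gene and, under the same heading, a depth-scaled value per circular RNA entry for 16 libraries. Per the labels' protocols RNA came from TRIzol extraction, and per the submitters' processing notes STAR 2.7 and GRCm38.p6 (mm10) were used. The sources used here name no circular RNA caller or counter and no use of strand. A blank row was dropped. Circular values were checked to be whole multiples of a step. Entries above 0 in at least 4 of 16 libraries (11951) were fitted with limma 3.58.1 in R 4.3.3 on log2(value + 0.262), with 4 group means, a variance trend and Benjamini-Hochberg adjustment over all entries tested. Genes that reached 1 FPKM in 4 or more libraries (12667) were fitted on log2(FPKM + 1). The fit was checked on simulated independent counts with a single fixed spread and with changes placed only in the more abundant entries. That check does not cover outlying libraries, likeness of neighbouring entries or the lowest entries. Single values per library were compared by exact permutation of diet within genotype label. The text names the 10 entries with the highest means, up to 10 rises and 10 falls per comparison without overlap, 3 entries at each side of the rule, Apoa4, and up to 4 genes per list. The members and lists were chosen with earlier results of these data known. 8 entries named in the rule are not analysed here. Alternatives covered scaling, pseudocount, filter, fit and leaving out libraries.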

Additional observations from a re-analysis of the deposited data

Results flagged for a closer look

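Of 152 groups of 4 libraries checked, 5 had 1 library far from the others (Dixon's test at the 95% level), and chance gives about 1 in 20. mmu_circ_0001198 read 2587 units in HFD KO-labelled 4, against at most 1346 in the other HFD KO-labelled libraries. mmu_circ_0009329 read 4.16 units in chow WT-labelled 3, against at most 2.45 in the other chow WT-labelled libraries. The summed FPKM of 15 epididymis and testis markers was 15715 in chow KO-labelled 2 (next 4.54), 5918 in HFD KO-labelled 4 (next 342) and 11.1 in HFD WT-labelled 4 (next 0.910). mmu_circ_0001200 had diet differences of opposite sign in the 2 genotype labels, with a log2 difference between them of -2.02 that did not pass the threshold (limma interaction term, adjusted p = 0.102).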

How the results depend on the processing

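Counts are members past the threshold. Leaving out 1 library gave 290 to 845 for diet in WT-labelled libraries (594 in all), 532 to 939 in KO-labelled libraries (823) and 1245 to 1761 averaged (1535), 0 to 4 and 0 to 7 for genotype on chow and on HFD (1 and 1), and 0 to 2 for the interaction (0). The log2 difference of the summed value then ran from -0.0382 to 0.0751, the difference in the share of mmu_circ_0001195 from 0.695 to 1.41 points and that of the 10 highest from 5.94 to 7.56 points. Diet in WT-labelled libraries gave 331 without a variance trend, 1238 with array weights, 1009 with genes in the same fit, and 951 and 1013 without the 2 and the 3 libraries with most epididymal genes; diet in KO-labelled libraries gave 318 when the 2 groups were fitted alone. Without those 2 and 3 libraries the summed value differed by 0.0842 and 0.0646 on the log2 scale, and without the 2 the share of mmu_circ_0001195 differed by 0.715 points.

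Genotype counts were small throughout. On chow and on HFD they were 0 and 4 with a constant circular sum, 5 and 2 with median-of-ratios on circular entries, 2 and 3 with median-of-ratios on genes, 0 and 0 without a variance trend, 4 and 3 with array weights, 4 and 2 without the 2 libraries, 3 and 3 without the 3, and 5 and 3 with genes in the same fit. On chow the count was 0 with the smaller pseudocount or with no filter, 2 when entries above 0 in all 16 libraries were fitted alone or at an adjusted p under 0.1, and 4 with a constant sum of the members, an alternative added after seeing the data. On HFD it was 0 when the 2 groups were fitted alone. The interaction gave 6 with array weights, 2 and 5 without the 2 and the 3 libraries, and 3 with genes in the same fit. The cause of these changes was not tested.

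With the replicate number as a block the counts were 558, 777 and 1462 for diet in WT-labelled, in KO-labelled and averaged, 0 and 1 for genotype on chow and on HFD, and 0 for the interaction. Same-numbered libraries had correlations of deviations between -0.347 and 0.09998. Such correlations cannot tell whether same-numbered libraries share a litter, cage or batch. The entries checked singly were those with the highest means or the largest diet changes without overlap. Their averaged diet differences kept direction and side of the threshold in 31 alternatives each. The exceptions were mmu_circ_0001198 and mmu_circ_0014064, which passed in 1 and 2 of them. Over all members, 1219 of the 1535 averaged calls were kept without a variance trend and 1227 without HFD WT-labelled 3. Depth limits the lowest entries, where the spread is near counting noise.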

Other observations

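Several members with large falls in the KO-labelled comparison stood highest in 2 chow libraries. mmu_circ_0007821, next in number to mmu_circ_0007820, read 1198 and 1131 units in chow KO-labelled 3 and 4, against 303 to 547 in the other 6 chow libraries and 23.3 to 321 on HFD. mmu_circ_0002842 read 717 and 397 units in the same 2 libraries, against 61.1 to 116 in the other chow libraries. mmu_circ_0005910 read 27.9 and 24.8 units there, against 5.52 to 12.3. The 3 entries thus had the same 2 libraries at the top, and their numbers are not neighbours.

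mmu_circ_0001460 differed widely among HFD libraries. It read 465 units in HFD KO-labelled 2, 218 in HFD WT-labelled 3, 156 in HFD KO-labelled 1 and 116 in HFD KO-labelled 3. In the other 4 HFD libraries it read 25.3 to 54.6, and in the chow libraries 14.6 to 22.4.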
